A study of Mus musculus and Rattus norvegicus with 36 samples.

Results

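The 36 genes described here encode enzymes, and 1 transcription factor, of fatty acid and sphingolipid metabolism. They were listed by name and found by gene symbol in each of the 5 gene tables of the study, with case ignored and with rat Scd and Ugt8 taken for mouse Scd1 and Ugt8a. A gene was tested where its value reached 10 in at least 3 libraries. All 36 were tested among 13985 genes in the acutely isolated mouse cells, among 14894 in mouse mPFC cultures and among 14933 in mouse hippocampus cultures. In rat, 32 of 36 were tested among 12481 genes in the GABA set (Acacb, Cers1, Degs2 and Sphk1 fell under the limit) and 34 of 36 among 12465 genes in the glutamate set (Cers1 and Degs2 fell under it).

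Fatty acids are built from acetyl-CoA by acetyl-CoA carboxylase and fatty acid synthase, then lengthened by elongases, given double bonds by desaturases and activated to acyl-CoAs. Sphingolipids start from serine and palmitoyl-CoA, pass through ceramide, and branch into sphingomyelin, glucosylceramide and the galactosylceramide and sulfatide that oligodendrocytes place in myelin. The oligodendrocyte lineage makes much of its own lipid, and the galactolipid genes are used as marks of its differentiation.

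The study holds 36 poly-A RNA libraries of oligodendrocyte precursor cells (OPCs), the dividing cells that give rise to oligodendrocytes, in 12 groups of 3. It asked how loss of BAF155, a subunit of the BAF chromatin remodeling complex encoded by Smarcc1, alters OPCs of 2 brain regions, and how OPCs respond to transmitters. The acute groups are Baf155 KO mPFC, Baf155 KO hippocampus, control mPFC and control hippocampus. The KO mice carry Pdgfralpha-CreER and Baf155-flox/flox, where the inducible Cre is driven from the gene of the OPC receptor PDGFRα, and the controls are littermates with Baf155-flox/flox and without Cre, so both genotypes carry the floxed alleles. The cells were obtained by immunopanning from perfused mice and lysed on the plate. The protocol speaks of dissected cortex, while the sample labels say medial prefrontal cortex (mPFC). The culture groups are wild-type mouse OPCs from mPFC or hippocampus, and wild-type rat OPCs from cortex, kept for 2 days in proliferation medium and then either given 200 µM GABA or 200 µM glutamate for 24 h or left untreated. GABA was given to all 3 kinds of culture, and glutamate to rat cultures with an untreated group of their own. Ages, the induction of the Cre, and whether replicates are separate animals, pools or cultures are not given in the sources used here, so a p-value here reflects the spread among these libraries alone, which may be technical.

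Values are read counts that were divided by 1 factor per library, called scaled counts below. Depth ran from 14.89 to 22.13 M reads. All 8 OPC markers checked, Pdgfra and Cspg4 among them, were present in every group, with summed scaled counts between 165200 and 245700. Smarcc1 averaged 2465 in KO mPFC and 1570 in KO hippocampus, against 3880 in the control libraries labelled mPFC and 4462 in those labelled hippocampus, so the transcript was lowered and not lost. KO mPFC library 3 and control hippocampus library 3 differed from their replicates more than those replicates did from each other.

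The region labels of the control groups are in doubt. Nr2f2, a transcription factor gene of caudal forebrain, had 389, 428 and 364 in KO hippocampus and 136, 125 and 151 in KO mPFC, against 128, 138 and 159 in the controls labelled hippocampus and 344, 351 and 350 in those labelled mPFC. In untreated culture it stood at 203.9 in hippocampus and 15.85 in mPFC. Over 13985 genes the hippocampus minus mPFC difference of KO cells had a Pearson correlation of -0.279 with that of control cells (Spearman -0.175). Over 12760 genes its correlation with the difference between untreated cultures was 0.42 for KO cells and -0.496 for control cells. These correlations are across genes, which share libraries and are not independent replicates. Of 14 forebrain region genes listed, Nr2f2 among them, 12 were tested in acute cells and gave a mixed picture. The sign of their hippocampus minus mPFC difference was opposite in KO and control cells for 7 of 12. It matched that of the untreated cultures for 8 of 12 in KO cells and for 5 of 12 in control cells. Whether the labels were exchanged is not settled by these values. The contrast that averages both regions does not depend on it and is given first, and calls for a single region are given with the labels as they stand and with them exchanged.

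Levels of the genes, as scaled counts per kilobase of exon, spanned a wide range, with Scd2 far above the others. Scd2, a stearoyl-CoA desaturase, stood at 16720 ± 347 per kilobase in the controls labelled mPFC and 16130 ± 295 in those labelled hippocampus (SD, n = 3 each). Fads2 came next with 4156 ± 26.2 and 4009 ± 192, then Scd1 with 2341 ± 33.1 and 2249 ± 35.4. Fads1 (1802 ± 39.4 and 1905 ± 54.2) and Fasn (1688 ± 26.6 and 1972 ± 135) followed, and their order differed between these groups and was within the spread in the controls labelled hippocampus. Acacb and Cers1 were the lowest in the controls labelled hippocampus. Untreated mouse cultures kept Scd2 at the top (15010 ± 15.9 in mPFC, 14880 ± 129 in hippocampus), but Fasn, at 2248 ± 8.29 and 2157 ± 112, held the place after it. Scd1 and Scd2 are close paralogs, and the sources used here do not say how reads shared between them were counted, so the split between these genes is uncertain.

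Promoters are shown for Acsl3, with the largest fall in KO cells, for 2 of the galactolipid genes, and for Fasn, the synthase of the pathway. Each line gives the 250 bases before a RefSeq transcript start on GRCm38.p6, written 5′ to 3′ on the gene's strand in lower case, and capitals mark the CCAAT box on either strand (CCAAT or ATTGG). The windows are chr1:78657575-78657824 (plus strand, Acsl3), chr11:3983386-3983635 (plus strand, Gal3st1, the first of its starts), chr3:125938653-125938902 (minus strand, Ugt8a) and chr11:120824548-120824797 (minus strand, Fasn).
Acsl3: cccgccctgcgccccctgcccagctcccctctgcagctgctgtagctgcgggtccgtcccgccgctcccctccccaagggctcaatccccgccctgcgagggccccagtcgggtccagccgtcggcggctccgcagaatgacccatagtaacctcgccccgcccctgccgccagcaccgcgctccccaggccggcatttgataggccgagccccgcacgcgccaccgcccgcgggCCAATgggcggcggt
Gal3st1: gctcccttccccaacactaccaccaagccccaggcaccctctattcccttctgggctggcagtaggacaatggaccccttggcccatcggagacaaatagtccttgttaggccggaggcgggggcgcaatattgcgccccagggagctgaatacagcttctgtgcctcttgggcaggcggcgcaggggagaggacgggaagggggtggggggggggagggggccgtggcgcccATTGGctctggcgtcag
Ugt8a: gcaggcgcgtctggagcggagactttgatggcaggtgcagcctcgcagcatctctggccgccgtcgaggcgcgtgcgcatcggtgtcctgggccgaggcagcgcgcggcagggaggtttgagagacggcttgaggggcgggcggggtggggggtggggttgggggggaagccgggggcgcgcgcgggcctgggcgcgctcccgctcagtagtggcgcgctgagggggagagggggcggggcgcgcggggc
Fasn: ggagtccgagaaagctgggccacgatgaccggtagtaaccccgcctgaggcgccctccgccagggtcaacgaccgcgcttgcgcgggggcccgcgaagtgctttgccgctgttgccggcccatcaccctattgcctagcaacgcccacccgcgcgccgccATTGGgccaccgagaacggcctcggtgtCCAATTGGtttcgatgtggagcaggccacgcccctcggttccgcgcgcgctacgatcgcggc
The Fasn window holds 3 matches, of which 2 overlap head to head in CCAATTGG. Of 36 genes, 31 had a promoter entry, and Scd1, Scd2, Fads1, Fa2h and Asah1 had none. Some genes have several starts, so these 31 had 51 windows. The CCAAT box was found in 21 of the 51 windows, from 17 genes, and in 33.8% of all 32851 promoter windows. The core of the sterol regulatory element, searched as TCACNCCAC on both strands, was found in 1 of the 51 windows, that of Acsl1, and in 1.05% of all windows. The E-box CACGTG was found in 7 of the 51 windows, from 6 genes, and in 6.02% of all windows. A match is a description of the letters and not a bound site.

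In the mean of both regions, 18 of the 36 genes fell in Baf155 KO OPCs, 7 rose and 11 did not pass. Without KO mPFC library 3 and control hippocampus library 3, left out after the data were seen, 20 fell and 9 rose. Over all genes that fit gave 4381 falls and 4285 rises, against 3849 and 3758 with all libraries. With all libraries, 54.4% of all genes tested passed, 27.5% downward and 26.9% upward. The median log2 fold change was -0.11 over the 36 genes and -0.01 over all genes. The falls included all 3 galactolipid genes, 4 of 6 genes of fatty acid synthesis and desaturation, and 5 of 8 elongases and polyunsaturated fatty acid desaturases. The rises were Sgms1, Acsl1, Cers6, Elovl2, Degs1, Acaca and Cers2. None changed by a factor of 2, and the largest change that passed was that of Acsl3. In bulk RNA, fewer cells of a type and less RNA per cell cannot be told apart. Here and below, the figure after ± beside a change is the standard error that limma gives on the log2(value + 1) scale, and adjusted p-values are Benjamini-Hochberg values over all genes tested.

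**Figure D1:**
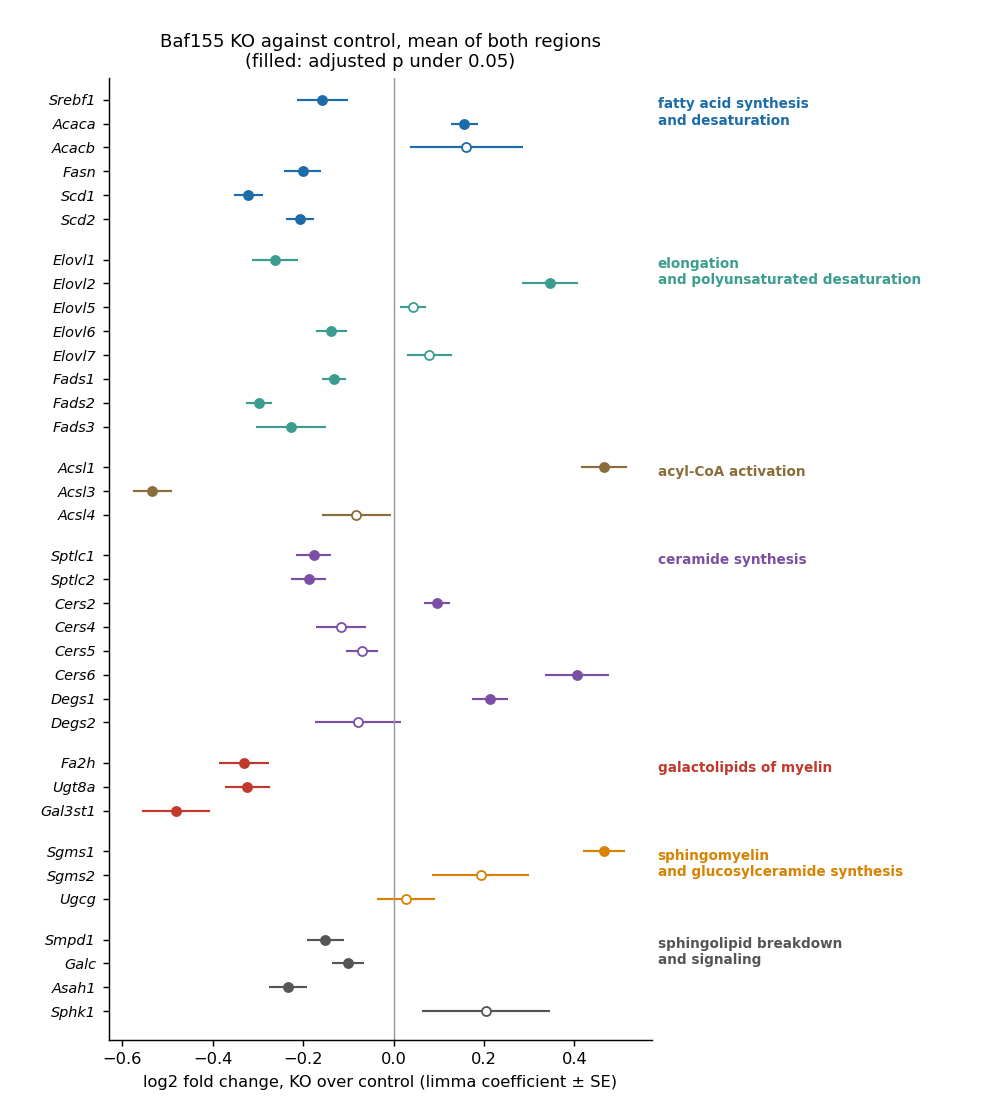
Log2 fold change, Baf155 KO over control, in the mean of both regions, for 35 of the 36 genes grouped by role. Points are limma coefficients with their standard errors, filled where the adjusted p was under 0.05, and Cers1 is left out because its count is uncertain. The 3 galactolipid genes lie between -0.48 and -0.32, while Acsl1, Sgms1, Cers6 and Elovl2 lie between 0.35 and 0.47.

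Fatty acid synthesis and desaturation fell at most steps. Srebf1, the transcription factor that turns on these genes, changed by -0.16 ± 0.06 (adjusted p = 0.0279). The change of Srebf1 was -0.098 without KO mPFC library 3, and it did not pass without KO hippocampus library 5, control hippocampus library 1 or 2, or control mPFC library 1. Fasn changed by -0.20 ± 0.04 (adjusted p = 6.68e-04). By region it was 0.0015 in mPFC, not passing, and -0.40 in hippocampus as labelled. With the labels exchanged it was -0.22 and -0.18, both passing. Acaca, acetyl-CoA carboxylase, which makes the malonyl-CoA that fatty acid synthase uses, went the other way, by 0.16 ± 0.03 (adjusted p = 5.54e-04). By region Acaca changed by 0.27 in mPFC and by 0.04, not passing, in hippocampus as labelled. With the labels exchanged it changed by 0.13 and 0.18, both passing. Acacb, its mitochondrial relative, ranged from 25.65 to 38.32 scaled counts over the 12 libraries and did not pass (0.16 ± 0.12).

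The stearoyl-CoA desaturases, which put the first double bond into saturated acyl chains, were lower in KO cells of both regions. Scd1 had 8837, 8970 and 10010 in KO mPFC and 8815, 8651 and 8674 in KO hippocampus, against 11360, 11360 and 11640 in the controls labelled mPFC and 10800, 11100 and 11100 in those labelled hippocampus. All KO libraries lay below all control libraries. The change was -0.32 ± 0.03 (adjusted p = 9.74e-07). Scd2 ranged from 74470 to 81710 in KO libraries and from 86570 to 93470 in control libraries, again without overlap, a change of -0.21 ± 0.03 (adjusted p = 5e-05).

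Among the desaturases of polyunsaturated fatty acids, Fads2 changed most. It had 11600, 11510 and 12050 in KO mPFC and 10180, 10220 and 10240 in KO hippocampus, against 13710, 13770 and 13600 in the controls labelled mPFC and 13590, 13560 and 12480 in those labelled hippocampus. The groups did not overlap, and the change was -0.30 ± 0.03 (adjusted p = 6.44e-07). Its neighbor Fads1, which acts after it on the same chains, changed by -0.13 ± 0.03 (adjusted p = 7.12e-04). By region Fads1 changed by -0.03, not passing, in mPFC and by -0.23 in hippocampus as labelled. With the labels exchanged it changed by -0.11 and -0.15, both passing. Fads3 had 156.4, 156 and 131.7 in KO mPFC and 170.2, 163.3 and 181.7 in KO hippocampus, against 218.5, 166.7 and 207.8 in the controls labelled mPFC and 180.7, 183.5 and 166.5 in those labelled hippocampus. These overlapped, and its change of -0.23 ± 0.08 (adjusted p = 0.0226) did not pass without KO hippocampus library 5, control hippocampus library 2, or control mPFC library 1 or 3.

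The elongases divided. Elovl1, which makes very long saturated and monounsaturated chains, had 1204, 1153 and 1021 in KO mPFC and 1018, 997.7 and 960.1 in KO hippocampus, against 1192, 1179 and 1079 in the controls labelled mPFC and 1431, 1492 and 1272 in those labelled hippocampus. KO mPFC overlapped the controls labelled mPFC but lay below those labelled hippocampus. The mean change was -0.26 ± 0.05 (adjusted p = 5.03e-04). By region it was -0.03 in mPFC, not passing, and -0.49 in hippocampus as labelled, and -0.31 and -0.21, both passing, with the labels exchanged. Elovl6, which extends palmitate to stearate, fell by 0.14 (SE 0.03) in the mean. By region Elovl6 changed by -0.04, not passing, in mPFC and by -0.23 in hippocampus as labelled. With the labels exchanged it changed by -0.23 in mPFC and by -0.05, not passing, in hippocampus. Elovl2, an elongase of long polyunsaturated chains, rose: it had 539, 637 and 623.1 in KO mPFC and 562.1, 523.8 and 502.8 in KO hippocampus, against 400.7, 461.8 and 489.1 in the controls labelled mPFC and 428.6, 408.4 and 472.7 in those labelled hippocampus. The change was 0.35 ± 0.06 (adjusted p = 2.84e-04) with no overlap. Elovl5 (0.04 ± 0.03) and Elovl7 (0.08 ± 0.05) did not pass.

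The acyl-CoA synthetases, which activate fatty acids for use, moved in opposite directions. Acsl3 (chromosome 1, 78657825 to 78707743, plus strand, GRCm38) had 3567, 3784 and 4356 in KO mPFC and 4096, 4027 and 4147 in KO hippocampus, against 5663, 5783 and 5770 in the controls labelled mPFC and 5656, 5676 and 6090 in those labelled hippocampus. Every KO library lay below every control library, and the change of -0.53 ± 0.04 (fold 0.691, adjusted p = 7.98e-08) was the largest among the 25 that passed. Acsl1 (chromosome 8, 46471037 to 46536051, plus strand) had 474.1, 460.2 and 543.1 in KO mPFC and 579.3, 592.7 and 547.2 in KO hippocampus, against 341.3, 339.5 and 354 in the controls labelled mPFC and 459.2, 418.2 and 406.5 in those labelled hippocampus. The lowest KO value was just above the highest control value, and the change was 0.47 ± 0.05 (fold 1.381, adjusted p = 2.96e-06). Acsl4 did not pass (-0.08 ± 0.08).

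**Figure D2:**
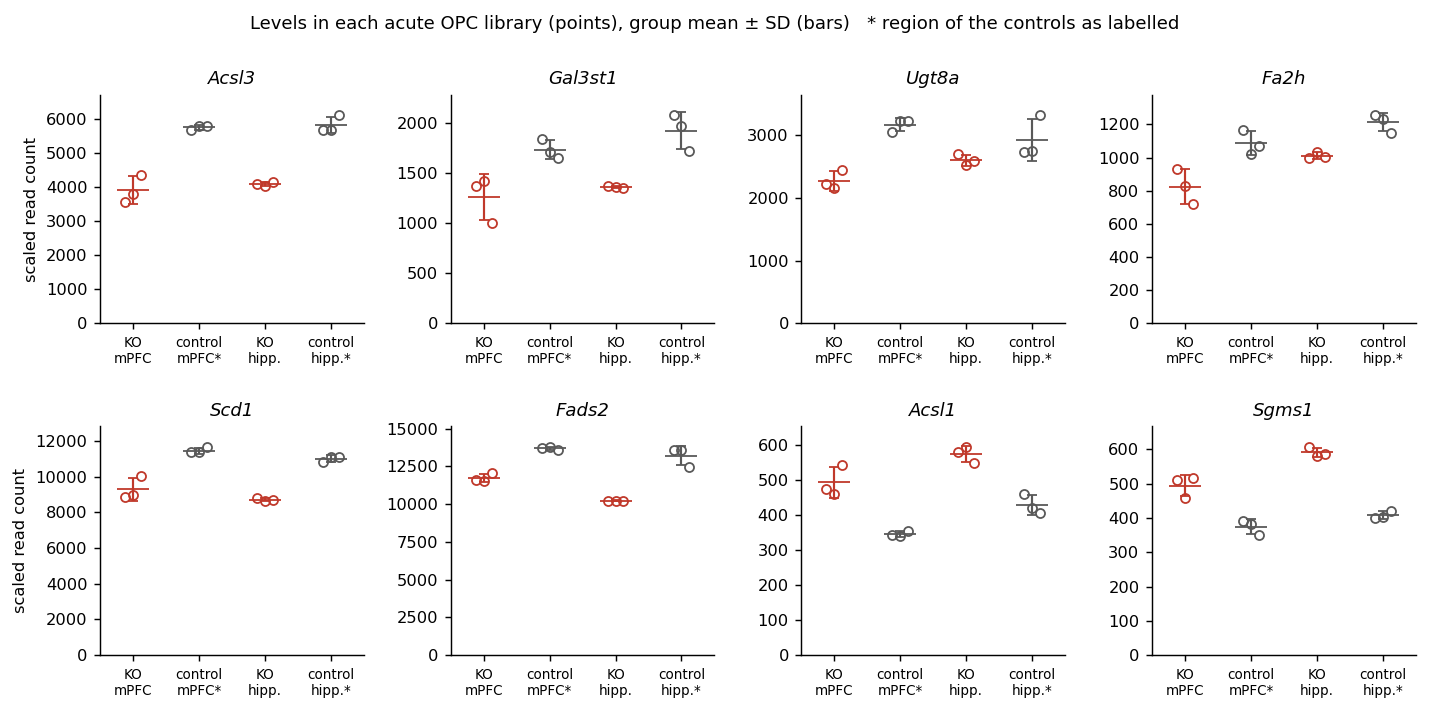
Scaled read counts of 8 genes in each of the 12 acute OPC libraries (open points) with the group mean and SD (bars), Baf155 KO in red and control in grey, with the regions of the controls as labelled. For Acsl3 the KO libraries reach 4356 at most and the control libraries 5656 at least, while for Acsl1 and Sgms1 the KO libraries are the higher ones.

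Of the genes of ceramide synthesis, 2 fell, 3 rose and 4 did not pass. Sptlc1 and Sptlc2, the subunits of the serine palmitoyltransferase that opens the pathway, changed by -0.18 ± 0.04 (adjusted p = 0.0015) and -0.19 ± 0.04 (8.93e-04). By region Sptlc1 changed by -0.35 in mPFC and by -0.005, not passing, in hippocampus as labelled. With the labels exchanged it changed by -0.19 and -0.16, both passing. Cers6, a ceramide synthase that prefers shorter acyl chains, had 472.1, 475.1 and 550.2 in KO mPFC and 496, 530.1 and 482 in KO hippocampus, against 299, 351.6 and 415.5 in the controls labelled mPFC and 402.9, 391.6 and 418.9 in those labelled hippocampus. It rose by 0.41 ± 0.07 (adjusted p = 2.16e-04), without overlap. Cers2, the synthase of very long chain ceramides found in myelin, rose by 0.10 ± 0.03 (adjusted p = 0.0103), a call lost under quantile normalization.

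Degs1, the desaturase that turns dihydroceramide into ceramide, had 2066, 2056 and 2318 in KO mPFC and 2481, 2287 and 2380 in KO hippocampus, against 2098, 2163 and 2087 in the controls labelled mPFC and 1759, 1726 and 1900 in those labelled hippocampus. KO mPFC overlapped the controls labelled mPFC and lay above those labelled hippocampus. The mean change was 0.21 ± 0.04 (adjusted p = 3.62e-04). By region it was 0.02 in mPFC, not passing, and 0.41 in hippocampus as labelled, and 0.26 and 0.17, both passing, with the labels exchanged. Cers4 (-0.12 ± 0.06), Cers5 (-0.07 ± 0.04) and Degs2 (-0.08 ± 0.10) did not pass in the mean.

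Cers1 cannot be read from these tables. In the acute cells it had 747.7 in KO hippocampus library 6 and at most 31.57 in the other 11 libraries. Gdf1, a gene that overlaps Cers1 on the same strand and shares 1349 exon bases with it, had 429.7 in that library and at least 957.5 in the others. The sum of both genes, 1177 in library 6, lay inside the range of the other 11 (970.7 to 1455). In mouse cultures Cers1 itself ranged from 635 to 753.9.

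The 3 genes of galactolipid synthesis fell together. Fa2h, which adds the hydroxyl group to fatty acids of myelin galactolipids, had 928.5, 827.7 and 718.4 in KO mPFC and 996.6, 1034 and 1005 in KO hippocampus, against 1168, 1023 and 1069 in the controls labelled mPFC and 1254, 1231 and 1150 in those labelled hippocampus. KO hippocampus overlapped the controls labelled mPFC and no other pair of KO and control groups overlapped, and the mean change was -0.33 ± 0.06 (adjusted p = 1.66e-04). In hippocampus it was -0.26 as labelled and -0.10, not passing (adjusted p = 0.312), with the labels exchanged. Ugt8a, the ceramide galactosyltransferase (chromosome 3, 125865271 to 125938619, minus strand), had 2211, 2147 and 2437 in KO mPFC and 2687, 2519 and 2578 in KO hippocampus, against 3044, 3222 and 3212 in the controls labelled mPFC and 2720, 2737 and 3306 in those labelled hippocampus. All KO values were the lower ones, the highest at 2687 and the lowest control value at 2720, with a mean change of -0.32 ± 0.05 (adjusted p = 6.52e-05). In hippocampus it was -0.17, not passing, as labelled and -0.28, passing, with the labels exchanged. Gal3st1, which sulfates galactosylceramide to sulfatide (chromosome 11, 3983636 to 3999326, plus strand), had 1372, 1416 and 998 in KO mPFC and 1370, 1362 and 1353 in KO hippocampus, against 1837, 1710 and 1649 in the controls labelled mPFC and 2073, 1969 and 1715 in those labelled hippocampus. There was no overlap, and the change was -0.48 ± 0.07 (adjusted p = 7.5e-05).

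Other markers of the lineage moved in both directions. Of 7 myelin markers tested of 10 listed, a list without these genes, 4 rose and 2 fell in the mean of both regions, with a median log2 fold change of 0.26. Their summed scaled counts were 33420 to 36010 in KO mPFC and 34170 to 34860 in KO hippocampus, against 28330 to 29610 in the controls labelled mPFC and 35000 to 36680 in those labelled hippocampus. Of 8 OPC markers, 6 fell and 2 rose (median -0.27), and the summed OPC markers were 204000 to 214000 in KO libraries, against 234500 to 245700 in control libraries. Of 8 astrocyte markers, 6 rose and 2 fell (summed 26000 to 32900 in KO, against 23730 to 24720 in control), and of 8 microglia markers 1 rose and 4 fell (summed 368.4 to 650.4 in KO, against 526.4 to 822.6 in control). Of 7 neuron markers tested 5 fell (summed 916 to 1242 in KO, against 1253 to 1339 in control). Of 8 mural and fibroblast markers 5 rose and 1 fell (summed 726.9 to 989.7 in KO, against 541.5 to 836.4 in control). Of 6 committed and premyelinating markers 3 rose and 2 fell, and of 3 endothelial markers tested 1 rose. Among all these lists, Ly6c1 of the endothelial one was at 0 throughout the controls labelled hippocampus. The part of these shifts in the changes of the 36 genes was not tested.

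The synthesis of other sphingolipids showed 1 change. Sgms1, the sphingomyelin synthase of the Golgi, had 510.5, 458.3 and 515.7 in KO mPFC and 606.5, 580 and 586.7 in KO hippocampus, against 390.7, 384 and 351 in the controls labelled mPFC and 400.9, 402.5 and 421 in those labelled hippocampus. It rose by 0.47 ± 0.05 (adjusted p = 9.81e-07) with no overlap. Sgms2, its plasma membrane relative (0.19 ± 0.11), and Ugcg, which makes glucosylceramide (0.03 ± 0.06), did not pass.

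Of the genes of breakdown, 3 of 4 fell by small amounts. Asah1, the acid ceramidase, had 2922, 3072 and 3468 in KO mPFC and 3432, 3464 and 3423 in KO hippocampus, against 4091, 4221 and 4027 in the controls labelled mPFC and 3457, 3555 and 3918 in those labelled hippocampus. KO mPFC and KO hippocampus both overlapped the controls labelled hippocampus and lay below those labelled mPFC. The mean change was -0.23 ± 0.04 (adjusted p = 3.18e-04). By region it was -0.39 in mPFC and -0.08 in hippocampus, not passing, as labelled, and -0.21 and -0.26, both passing, with the labels exchanged. Smpd1, the acid sphingomyelinase, changed by -0.15 ± 0.04 (adjusted p = 0.0068) and Galc, which breaks down galactosylceramide, by -0.10 ± 0.04 (0.0263). The call of Galc was lost without KO hippocampus library 5 or 6, control hippocampus library 3, or control mPFC library 3. Sphk1, which makes sphingosine 1-phosphate, was low and did not pass (0.20 ± 0.14).

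Genes of the pathway outside the 36 were counted from lists of their own. In the mean of both regions, where 27.5% of all genes fell and 26.9% rose, 7 of 11 regulators of lipid synthesis fell and 1 rose. Insig1, which holds back the activation of the sterol regulatory element binding proteins and is itself one of their targets, had 3988, 4272 and 4233 in KO mPFC and 4507, 4437 and 4436 in KO hippocampus, against 7966, 8208 and 7993 in the controls labelled mPFC and 8658, 8543 and 8850 in those labelled hippocampus. Its change of -0.96 ± 0.03 (adjusted p = 1.66e-12) exceeded that of every one of the 36 genes that passed. Srebf2, the factor of sterol synthesis, changed by -0.17 ± 0.03 and Thrsp by -0.77 ± 0.12.

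Of 19 other genes of fatty acid synthesis and elongation, 7 fell and 5 rose. In this mean of both regions 27.5% of all genes fell and 26.9% rose. Among the falls were Acly (-0.39 ± 0.03, adjusted p = 8.03e-09, limma) and Acss2 (-0.43 ± 0.05), which supply acetyl-CoA in the cytosol. Of 17 genes of fatty acid oxidation, 8 fell and 1 rose. The riser was Cpt1a, the entry step into mitochondria (0.26 ± 0.03, adjusted p = 1.83e-05). Of 30 other sphingolipid genes, 11 fell and 5 rose, with Gltp, a glycolipid transfer protein, at -0.35 ± 0.04 and Sgpl1, which cleaves sphingosine 1-phosphate, at 0.21 ± 0.03.

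Taken by region with the labels as they stand, 14 of the 36 genes fell and 6 rose in KO mPFC, where 47.4% of all genes passed (23.2% downward and 24.1% upward). In KO hippocampus 11 fell and 8 rose, where 42.6% of all genes passed (21.0% downward and 21.7% upward). With the control labels exchanged, 15 fell and 9 rose in mPFC (38.8% of all genes passed, 18.8% downward and 20.0% upward), and 14 fell and 8 rose in hippocampus (48.1%, with 23.6% downward and 24.5% upward). Scd1, Scd2, Fads2, Acsl3 and Gal3st1 fell in both regions under either assignment, and Elovl2, Acsl1, Cers6 and Sgms1 rose in both under either. Under either assignment, Sptlc2, Cers2 and Galc passed in mPFC and not in hippocampus, and Smpd1 passed in hippocampus and not in mPFC. As labelled, the hippocampus calls of Elovl2, Cers6 and Fa2h were each lost without control hippocampus library 1 or 2 and without 1 KO hippocampus library (4 for Elovl2 and Fa2h, 5 for Cers6). Acsl3 changed by -0.56 and -0.51 (mPFC and hippocampus) as labelled and by -0.58 and -0.49 exchanged. Acsl1 changed by 0.51 and 0.42 as labelled and by 0.20 and 0.73 exchanged. Its difference, hippocampus minus mPFC, did not pass as labelled (-0.09 ± 0.10) and passed exchanged (0.53, adjusted p = 0.00427, limma).

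The difference of the KO effect between regions passed for 12 of the 36 genes as labelled, 8 positive and 4 negative, with 24.4% of all genes passing, 11.8% positive and 12.6% negative. Without KO mPFC library 3 and control hippocampus library 3, left out after the data were seen, 14 were positive and 10 negative. Over all genes that fit gave 3399 positive and 3591 negative differences, against 1650 and 1765 with all libraries. Among the 12 genes the largest difference was that of Cers4, a ceramide synthase picked out here after its values were seen. It had 359, 381.2 and 366.8 in KO mPFC and 445.3, 457 and 485 in KO hippocampus, against 547.7, 546.6 and 481.1 in the controls labelled mPFC and 425.6, 369.9 and 354.8 in those labelled hippocampus. Its difference, hippocampus minus mPFC, was 0.78 ± 0.11 (adjusted p = 2.18e-04) as labelled and -0.13 exchanged. With labels exchanged, 4 genes passed (13.8% of all genes, 6.28% positive and 7.52% negative), namely Acsl1, Fa2h and Sgms1 upward and Fads2 downward, and none of them was among the 12. The loss of Smarcc1 itself was unequal as labelled, at -0.66 in mPFC and -1.51 in hippocampus. That difference was -0.85 ± 0.07 (adjusted p = 9.5e-07, limma). Its part in the region differences of the 36 genes was not tested. 

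**Figure D3:**
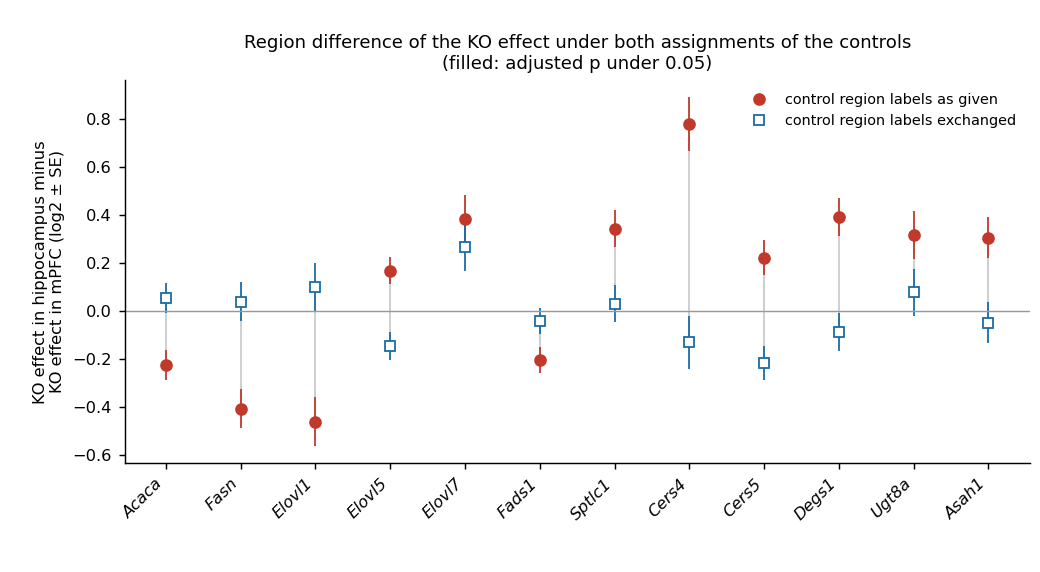
Difference of the Baf155 KO effect, hippocampus minus mPFC, on the log2 scale with its standard error, for the 12 genes that passed with the control region labels as given (red circles) and for the same genes with those labels exchanged (blue squares). Filled points have an adjusted p under 0.05. No gene passes under both, and Cers4 moves to -0.13 when exchanged, against 0.78 as given.

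Many of these genes were lower in rat cortex OPCs given glutamate. Of 34 genes tested, 15 fell and 3 rose, where 28.3% of all genes passed, 14.2% downward and 14.1% upward. The median log2 fold change was -0.10 over the 34 genes and 0.00 over all genes. The falls again covered all 3 galactolipid genes, with Scd, Scd2, Fasn, Acsl3 and Acsl1. The very small adjusted p-values below rest on a spread that limma estimates from all genes together, since 3 against 3 libraries cannot give an exact permutation p under 0.1.

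Among the genes of synthesis, Scd had 8066, 7858 and 7847 in glutamate-treated cultures, against 10500, 10380 and 10300 in untreated cultures, a change of -0.39 ± 0.02 (adjusted p = 1.28e-26). Fasn had 22320, 23470 and 23460 with glutamate, against 26670, 26890 and 26780 untreated (-0.21 ± 0.02, adjusted p = 4.75e-16). Scd2 had 160300, 157600 and 157500 with glutamate, against 178200, 175300 and 175700 untreated (-0.15 ± 0.02, adjusted p = 6.88e-14). None of these 3 overlapped between groups. Scd2 is the most abundant gene of each library, and quantile normalization, which gives the top gene of every library the same value, set its change to 0.

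Acsl3 had 9173, 9170 and 9270 with glutamate, against 12120, 11840 and 11970 untreated, and changed by -0.38 ± 0.02 (adjusted p = 1.15e-26). Ugt8 had 10950, 11040 and 10820, against 14340, 13910 and 14080 untreated (-0.37 ± 0.02, adjusted p = 1.98e-26). Fa2h had 1141, 1147 and 1132, against 1563, 1491 and 1515 untreated (-0.42 ± 0.04, adjusted p = 3.43e-16). Every treated culture lay below every untreated one for these genes.

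The other falls were those of Sgms2 (-0.34 ± 0.09), Elovl7 (-0.28 ± 0.10), Gal3st1 (-0.27 ± 0.04), Acsl1 (-0.23 ± 0.04), Cers2 and Elovl1 (both -0.18), Elovl6 (-0.14), Sptlc2 (-0.13) and Acaca (-0.11). The call of Elovl7 was lost without untreated library 1 or 2 or glutamate library 1 or 3, and that of Sptlc2 without glutamate library 1. The rises were Cers4 (0.17 ± 0.04), Elovl5 (0.13 ± 0.03), an elongase of polyunsaturated chains, and Fads1 (0.11 ± 0.02). Of the 4 genes of breakdown and signaling, 0 passed (limma, Galc alone had an unadjusted p under 0.05). Of the 18 genes that fell in the KO mean and the 15 that fell with glutamate, 10 were in both lists, among them Acsl3, Scd1, Scd2, Fasn and the 3 galactolipid genes. Of the 19 tested genes that did not fall with glutamate, 8 fell in the KO mean, and the difference between 10 of 15 and 8 of 19 was not tested.

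Most markers of the lineage fell with glutamate as well. Of 8 OPC markers 5 fell and 2 rose (summed 165400 to 167000 with glutamate, against 180200 to 181700 untreated). All 6 markers of committed and premyelinating cells that were tested fell, and of 9 myelin markers 6 fell (summed 160100 to 162000 with glutamate, against 200300 to 202500 untreated). Of 8 astrocyte markers 7 rose and 1 fell (summed 46780 to 47140, against 39700 to 40000 untreated). The part of these shifts in the changes above was not tested.

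GABA gave mostly rises in rat cortex OPCs. Of 32 genes tested, 13 rose and 0 fell (limma, also 0 at an unadjusted p under 0.05, with 23.7% of all genes passing, 11.9% upward and 11.8% downward), and the median was 0.09 over the 32 genes and -0.01 over all. All 3 genes of sphingomyelin and glucosylceramide synthesis rose: Sgms2 by 0.50 ± 0.13, Ugcg by 0.23 ± 0.05 and Sgms1 by 0.21 ± 0.06, a call lost without GABA library 2. Galc (0.30 ± 0.07) and Asah1 (0.14 ± 0.03) of the breakdown genes rose with them.

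Ugt8 had 9505, 9811 and 9770 with GABA, against 7952, 8146 and 8054 untreated (0.27 ± 0.03, adjusted p = 1.19e-09). Elovl2 had 775.9, 796.1 and 797.7, against 538.3, 595.7 and 600.6 untreated (0.45 ± 0.05, adjusted p = 2.05e-08). Elovl5 had 3672, 3878 and 3849, against 3291, 3370 and 3314 untreated (0.19 ± 0.03, adjusted p = 1.05e-05). Treated and untreated cultures did not overlap for any of them.

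Srebf1 had 1387, 1377 and 1378 with GABA, against 1181, 1200 and 1148 untreated (0.23 ± 0.04, adjusted p = 1.87e-05). Fads1 had 5919, 5780 and 5831, against 5253, 5283 and 5105 untreated (0.16 ± 0.03, adjusted p = 2.9e-05). Cers6 had 477.8, 450.1 and 458, against 365.2, 386.1 and 346.5 untreated (0.34 ± 0.06, adjusted p = 9.83e-05). These too lay wholly above the untreated cultures. Scd2 (0.16 ± 0.03) and Acsl3 (0.09 ± 0.03) rose as well, and Acsl3 did not pass without untreated library 3 or GABA library 2 or 3. Beside these, of 6 committed and premyelinating markers 5 rose and 1 fell. Of 8 myelin markers tested 5 rose (summed 220000 to 221400 with GABA, against 182100 to 187700 untreated). Of 8 OPC markers 3 rose and 4 fell, and of 8 astrocyte markers 2 rose and 3 fell. Of 8 microglia markers 7 rose (summed 929 to 966.6, against 408.1 to 465.3 untreated). The part of these shifts in the rises above was not tested.

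The difference between the glutamate and GABA effects was tested in 1 fit over the 12 rat libraries, each effect taken against its own untreated group. It was negative and passed for 21 of 34 genes and was positive and passed for 0 (limma, also 0 at an unadjusted p under 0.05), where 20.4% of all genes passed, 10.4% in the negative direction. Ugt8 (-0.64 ± 0.03, adjusted p = 3.02e-21) and Sgms2 (-0.84 ± 0.15, adjusted p = 3.07e-05) differed most. Acsl3, Scd2, Sgms2 and Ugt8 fell with glutamate and rose with GABA, whereas Elovl5 and Fads1 rose with both, and the differences of those 2 (both -0.06 ± 0.04) did not pass. The untreated groups of the GABA and glutamate sets, scaled separately, were unlike. Their summed microglia markers were 408.1 to 465.3 and 47.48 to 63.33, and their astrocyte markers 31850 to 32010 and 39700 to 40000. A difference between transmitters cannot be told apart from a difference between sets.

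**Figure D4:**
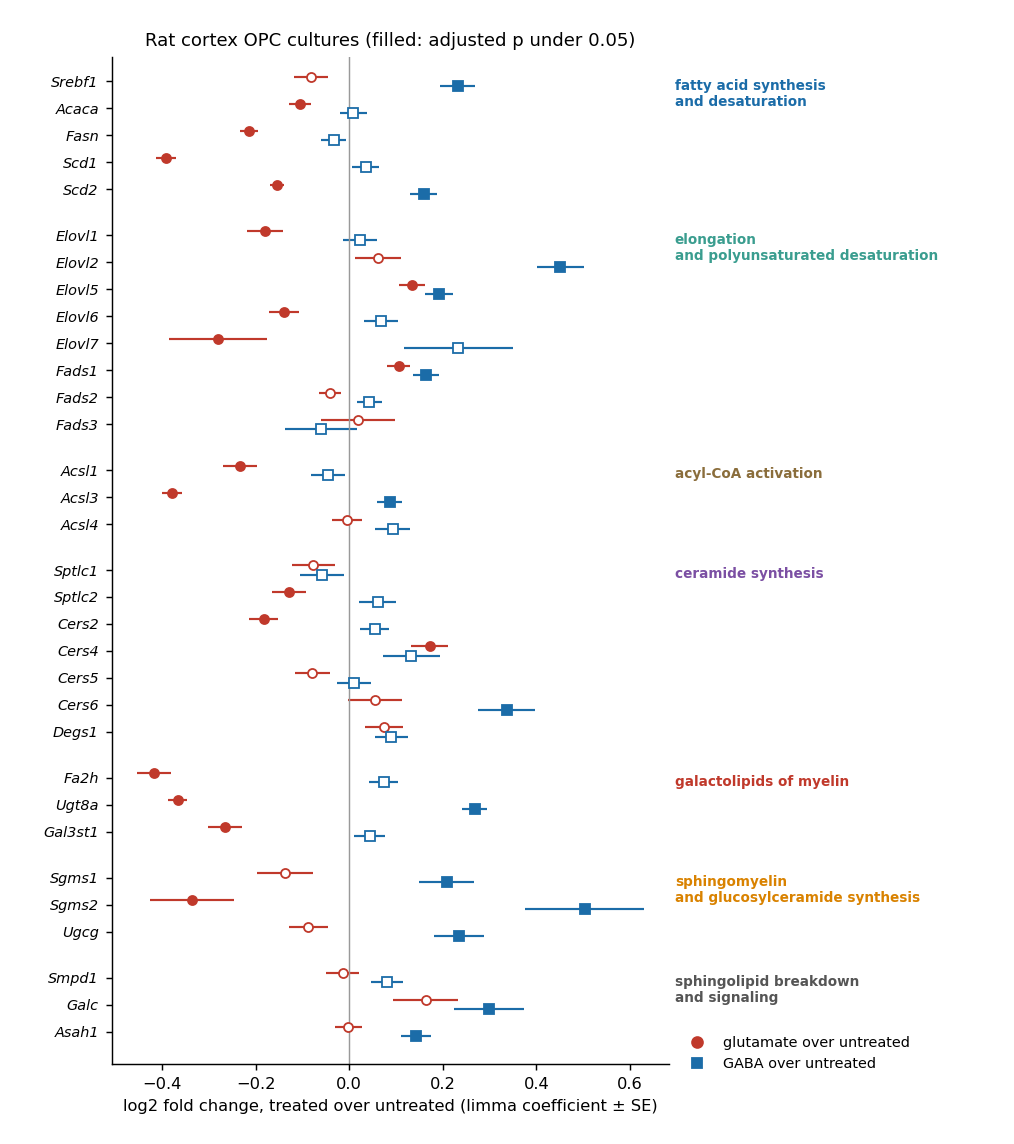
Log2 fold change over untreated in rat cortex OPC cultures, glutamate (red circles) and GABA (blue squares), each with its standard error, for the 32 genes tested in both sets, with mouse symbols (Scd1 is rat Scd and Ugt8a is rat Ugt8). Filled points have an adjusted p under 0.05. The galactolipid genes lie between -0.42 and -0.27 with glutamate and between 0.04 and 0.27 with GABA.

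Mouse cultures were also given GABA. In mPFC cultures 5 of 36 genes fell and 1 rose (6.55% of all genes passed, 3.36% downward and 3.18% upward). Srebf1 was the riser, with 2113, 2103 and 2059 in GABA-treated cultures, against 1752, 1656 and 1813 in untreated cultures (0.27 ± 0.04, adjusted p = 0.00101). Elovl7 had 1384, 1313 and 1286 with GABA, against 1580, 1540 and 1536 untreated (-0.23 ± 0.05, adjusted p = 0.00475). Acsl3 had 6663, 6060 and 6099, against 7220, 7028 and 7225 untreated (-0.19 ± 0.04, adjusted p = 0.00588). The groups did not overlap for these genes, but Acsl3 did not pass without untreated library 1 or 3.

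Elovl6 had 6200, 5963 and 6149 with GABA in mPFC cultures, against 6651, 6925 and 6792 untreated (-0.15 ± 0.03, adjusted p = 0.0119). Ugt8a had 4779, 4442 and 4663, against 5083, 5122 and 5074 untreated (-0.14 ± 0.04, adjusted p = 0.0308). Scd1 had 9042, 8815 and 9164, against 9765, 9765 and 9728 untreated (-0.11 ± 0.03, adjusted p = 0.0423). Each was lower in every treated culture, but Ugt8a and Scd1 did not pass without any 1 of the untreated libraries or GABA library 2 or 3, nor Elovl6 without untreated library 2 or 3. Of 7 myelin markers 4 fell beside them (summed 42230 to 43410 with GABA, against 47830 to 49210 untreated). Of 6 committed and premyelinating markers 3 fell (summed 60030 to 62610, against 65190 to 66810 untreated). Of 8 astrocyte markers 3 rose and 2 fell. The part of these shifts was not tested.

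In hippocampus cultures 7 of 36 genes rose with GABA and 4 fell (24.7% of all genes passed, 11.9% upward and 12.8% downward). Smpd1 had 1303, 1305 and 1282 in GABA-treated cultures, against 1056, 1092 and 1020 in untreated cultures (0.30 ± 0.04, adjusted p = 1.81e-05). Fads1 had 7516, 7542 and 7418, against 6802, 6543 and 6264 untreated (0.20 ± 0.03, adjusted p = 7.25e-05). Srebf1 had 2054, 2098 and 2006, against 1826, 1684 and 1725 untreated (0.23 ± 0.04, adjusted p = 1.19e-04). All 3 were higher in every treated culture.

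Scd1 had 10450, 10330 and 10540 with GABA in hippocampus cultures, against 9305, 9424 and 9476 untreated (0.15 ± 0.03, adjusted p = 3.11e-04). Fasn had 26650, 27060 and 25770, against 24810, 23670 and 22360 untreated (0.17 ± 0.03, adjusted p = 4.58e-04). Gal3st1 had 1271, 1330 and 1296, against 1466, 1580 and 1397 untreated (-0.19 ± 0.05, adjusted p = 0.00348). None of these overlapped. Cers6 (0.27 ± 0.07) and Elovl5 (0.12 ± 0.03) rose, while Ugt8a (-0.13 ± 0.03), Elovl7 (-0.14 ± 0.04) and Acsl3 (-0.10 ± 0.03) fell. Elovl7 overlapped between groups. Acsl3 passed only with untreated libraries 2 and 3 and all GABA libraries in the fit, Elovl7 only with untreated libraries 2 and 3 and GABA libraries 1 and 2, and Ugt8a only with GABA libraries 1 and 2. Without untreated library 3 the changes were -0.064 for Acsl3 and -0.092 for Elovl7. Elovl5 lost its call without untreated library 2 or GABA library 1, and Cers6 without GABA library 3. Of 7 myelin markers 2 rose (summed 44850 to 45850 with GABA, against 43170 to 44750 untreated). Of 6 committed and premyelinating markers 3 fell (summed 59850 to 60940, against 63100 to 64510 untreated), and of 7 mural and fibroblast markers tested 3 rose (summed 723.8 to 773, against 459.2 to 545.3 untreated). The part of these shifts was not tested.

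Across the 3 kinds of culture, Srebf1 was the 1 gene that rose in each, by 0.27, 0.23 and 0.23 in mouse mPFC, mouse hippocampus and rat cortex. Acsl3, Elovl7 and Ugt8a fell in both mouse cultures. These calls rest on single libraries as given above, except that of Elovl7 in mPFC cultures. Acsl3 and Ugt8a passed upward in rat, where the call of Acsl3 again rests on single libraries. The difference between mouse and rat was not tested. Between mouse regions the GABA effect differed for 2 of 36 genes (4.82% of all genes passed, 2.61% positive and 2.21% negative). Both were more positive in hippocampus: Fads1 by 0.32 ± 0.06 (adjusted p = 0.00351, limma) and Scd1 by 0.27 ± 0.04 (adjusted p = 4.59e-04). The calls of Scd1 were opposite in the 2 regions, but its fall in mPFC cultures rests on single libraries as given above. Acacb, Acsl4, Cers1, Degs2 and Sphk1 passed in none of the comparisons made with the labels as they stand.

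**Figure D5:**
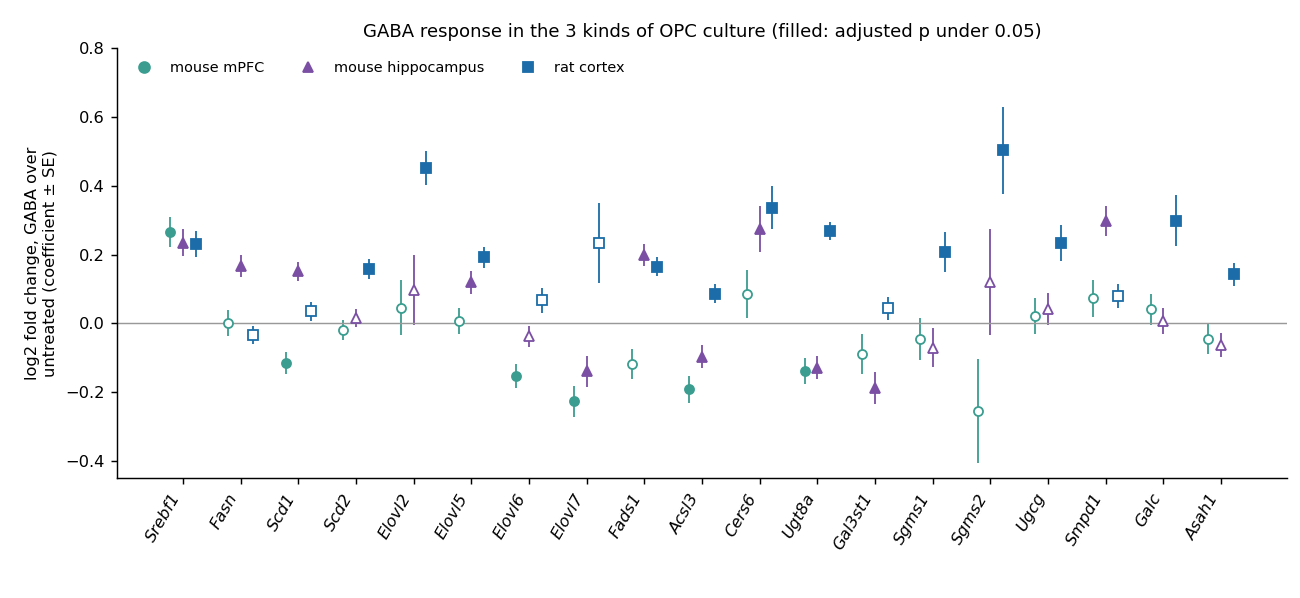
Log2 fold change, GABA over untreated, with its standard error, in mouse mPFC (green circles), mouse hippocampus (purple triangles) and rat cortex (blue squares) OPC cultures, for the genes that passed in at least 1 of them. Filled points have an adjusted p under 0.05. Srebf1 is filled above 0 in all 3, and Acsl3 and Ugt8a are below 0 in mouse and above 0 in rat.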

How the data were processed

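Gene expression was measured by poly-A RNA sequencing in 36 libraries, in single 50-base reads per the labels' protocols. The submitters' processing notes name HISAT, Bowtie2, DESeq2 and GRCm38.p6, with no versions or roles, and for the rat the build was not given in the sources used here. The deposited values are a signal that the authors made by dividing read counts per gene by 1 factor per library: every value above 0 was a whole multiple of the smallest step of its library (tolerance 1e-06), and 1 read was worth 0.9052 to 1.117. Rat rows without a gene symbol, 1.517 to 1.656% of a library, were left out.

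The 4 acute groups were fitted together and each culture set alone, with limma 3.58.1 (R 4.3.3, limma-trend) on log2(value + 1), for genes that reached 10 in at least 3 libraries. A gene passed at a Benjamini-Hochberg adjusted p under 0.05 over all genes tested. The difference between 2 culture effects came from a joint fit. Fold changes are on the log2(value + 1) scale, which understates changes of low genes. Gaps between replicates exceeded counting noise in every pair, and depth bears mainly on genes with few reads, such as Acacb and Sphk1.

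The 36 genes and the lists of pathway and marker genes were chosen with earlier results of these data known. Values in every library are given for the 14 genes with the largest changes among those that passed in the mean of both regions and for the 6 with the smallest p in each culture comparison. Up to 4 genes of each other pathway list that passed with the smallest p are named per comparison. Same-numbered libraries deviated together with correlations from -0.0359 to 0.118 and were not treated as pairs. Each control library labelled mPFC correlated most with the control library labelled hippocampus of the same number (0.0528, 0.0392 and 0.0503). Whether the control libraries of both regions share mice was not tested, and the mean of both regions treats them as independent. Alternatives were another normalization (quantile), other pseudocounts, no filter, each library left out, a replicate block, and exchanged control region labels. Gene positions are from GENCODE M21 and promoters from RefSeq, both on GRCm38.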

Additional observations from a re-analysis of the deposited data

Results flagged for a closer look

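With the control region labels as given, the Baf155 KO effect differed between hippocampus and mPFC for 12 of the 36 genes, by the test of the difference itself (limma, log2 scale, hippocampus minus mPFC), and for 24.4% of all genes. The difference was 0.78 for Cers4, 0.39 for Degs1, 0.38 for Elovl7, 0.34 for Sptlc1, 0.32 for Ugt8a, 0.31 for Asah1, 0.22 for Cers5 and 0.17 for Elovl5. It was -0.46 for Elovl1, -0.41 for Fasn, -0.22 for Acaca and -0.20 for Fads1. With the control labels exchanged, 0 of these 12 kept the call. Smarcc1 itself fell more in hippocampus as labelled (difference -0.85, adjusted p = 9.5e-07, limma), and its part was not tested. As labelled, leaving out 1 of the 12 libraries took the call from Elovl5 in 10 cases, Ugt8a in 8, Cers5 in 7, Asah1 in 3 and Acaca in 2.

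The GABA effect differed between mouse hippocampus and mouse mPFC cultures for Fads1 (0.32, hippocampus minus mPFC) and Scd1 (0.27), by the same kind of test in a joint fit. This is 2 of 36 genes, where 4.82% of all genes passed, so the share is near that of all genes.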

How the results depend on the processing

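In the mean of both regions, the count of the 36 genes that passed stayed within 1.5 times in each direction under every alternative run. Exchanging the control labels reversed Cers5 (0.038) in mPFC, Cers4 (-0.18) and Elovl5 (-0.030) in hippocampus, and 8 differences between regions: Acaca (0.055), Asah1 (-0.048), Degs1 (-0.086), Fasn (0.040), Elovl1 (0.10), Cers4 (-0.13), Elovl5 (-0.15) and Cers5 (-0.21). Over all genes the difference between regions then passed for 1929 genes (3 of the 36 higher, 1 lower). Without KO mPFC library 3 and control hippocampus library 3, chosen after seeing the data, it passed for 6990 (14 higher, 10 lower). With no filter, GABA in mPFC cultures passed for 641 genes (3 of the 36 fell), and in hippocampus cultures 2 fell, as under quantile normalization (2). Quantile normalization also took the call from Scd2 with KO and glutamate.

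Leaving out each library in turn, the risers in KO hippocampus numbered 5 to 9 (5 without control hippocampus library 1 or 2). The difference between regions passed for 2421 to 5283 genes (5 to 11 of the 36 higher, 3 to 7 lower), the most without KO mPFC library 3. GABA in mPFC cultures passed for 418 to 1820 genes (1 to 5 fell), with 418 to 448 without an untreated library and 1820 without GABA library 1. GABA in hippocampus cultures passed for 2357 to 4300 genes (1 to 6 fell), with 2357 without GABA library 2. Their difference passed for 270 to 1279 genes (2 to 4 higher), with 1279 without mPFC GABA library 2 and 270 without mPFC untreated library 3. In the KO mean the calls of Srebf1, Fads3 and Galc were each lost without any 1 of 4 libraries.

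A replicate block moved no count by over 1.5 times: it gave 7652 genes for KO mPFC, 1094 and 4105 for GABA in mPFC and hippocampus cultures, 3175 and 3674 for GABA and glutamate in rat, 940 for the difference of mouse GABA effects and 2670 for that of rat effects. Scd1 lost its call in mPFC cultures (-0.11, adjusted p = 0.070, limma). No paired analysis was possible for KO hippocampus, the mean and the difference between regions because KO hippocampus, which enters each, is numbered 4 to 6 and shares no number with another group. The planned edgeR test on recovered reads was not run. With 3 libraries a group, changes of low genes were not detectable at this depth unless large.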

Other observations

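In the cultures, pathway genes outside the 36 showed changes of their own. Thrsp, a regulator of lipogenesis, had 42.72, 47.01 and 58.61 scaled counts in rat cultures with GABA, against 146.1, 136.7 and 165.7 untreated (-1.58 ± 0.13 on the log2 scale, adjusted p = 5.14e-11, limma), and changed by -0.55 with glutamate. Insig1 changed by -0.15 with glutamate in rat and by -0.13 with GABA in mouse mPFC cultures. Acsbg1, an acyl-CoA synthetase of another family than the Acsl genes, rose by 0.39 in the KO mean, by 0.30 ± 0.03 with glutamate in rat (adjusted p = 1.28e-11) and by 0.31 with GABA in mouse mPFC cultures.

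Genes of fatty acid oxidation mostly rose where they passed in culture: 3 of 17 rose with GABA in mouse mPFC cultures (Hadh 0.30, Acadl 0.26 and Ech1 0.25), where 3.18% of all genes rose. With GABA 3 rose in mouse hippocampus cultures (11.9% of all genes), and 2 rose and 1 fell in rat cultures (11.9% and 11.8%). With glutamate in rat 5 rose (Acadl 0.25) and 1 fell, where 14.1% of all genes rose and 14.2% fell. In the KO mean, Acadl (-0.23) and Ech1 (-0.33) fell.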
